A study of Mus musculus with 6 samples.

Results

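*Txnip* and 4 arrestin-domain genes, *Arrdc1*, *Arrdc2*, *Arrdc3* and *Arrdc4*, were followed from RNA to ribosome footprints in cultured squamous cell carcinoma cells (SCCc). They were matched by name and made up 5 of the 23698 gene rows, and none of them shared its row with another gene. The set was chosen from measured values, because the translational efficiency (TE) of *Txnip* had been seen among the low ones in these libraries, so TE is given as a description with no test. Files of 1 ribosome profiling library and 2 RNA-seq libraries were analysed, all from keratinocytes carrying *HrasG12V* together with loss of *Tgfbr2* (Tgfbr2 fl/fl KO). This cell line was derived from newborn (P0) mouse back skin and used at passage 10 to 15, so the values describe 1 line in culture. Wild-type keratinocytes and the long-read libraries were not analysed here, and every value below is a level within SCCc rather than a change against normal cells. The labels do not say whether the RNA-seq replicates came from separate cultures, and their spread may be technical.

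Proteins of this family are alpha-arrestins. They carry arrestin folds, and most bear short proline-rich motifs near the C terminus through which they bring ubiquitin ligases of the NEDD4 family to membrane proteins, which are then internalised. *Txnip* also binds reduced thioredoxin and restrains glucose uptake by promoting endocytosis of the transporter GLUT1, the product of *Slc2a1*. Its transcription rises with glucose through MondoA (encoded by *Mlxip*) and its partner *Mlx*, and *Arrdc4* is another target of these factors. *Arrdc1* is known for the budding of vesicles at the plasma membrane together with *Tsg101*, and *Arrdc3* for the trafficking of integrin beta4.

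In ribosome profiling, the stretches of mRNA that ribosomes shield from nuclease are sequenced as footprints. This library held 3549555 counts on exons, and the RNA-seq libraries held 10707930 (replicate 1) and 14003713 (replicate 2). Levels are given as RPKM, reads on a region scaled to its counted length and to the exon counts of the library. The study's methods name further ribosome profiling libraries of SCC, which were not used here, so the footprints are read from 1 library. The intervals given for them are exact Poisson 95% intervals, which cover counting error only.

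The cells were checked against markers of the labelled cell type. All 7 basal keratinocyte markers were above 1 RPKM in both RNA-seq libraries, and their summed level was 13877 RPKM in replicate 1 and 15989 RPKM in replicate 2. *Krt5* was the most abundant of them, at 7965 and 9483 RPKM. Of the 5 markers of differentiated keratinocytes, 4 were listed, with a summed level of 118 and 120 RPKM that came mostly from *Ivl*. The 6 fibroblast markers summed to 9.93 and 15.5 RPKM, led by *Col3a1* at 3.89 and 5.49 RPKM, and 5 of them had 0 CDS footprints; *Pdgfra* had 10. Melanocyte markers summed to 5.38 and 5.47 RPKM, nearly all from *Pmel*, with *Tyr* at 1 count in each RNA-seq library and *Mlana* at 1 and 0. Among the 4 immune markers, *Cd68* stood at 35.1 and 37.3 RPKM, while *Ptprc* had 5 and 14 counts and *Cd3e* and *Cd207* had 0. The endothelial genes *Pecam1* and *Cdh5* summed to 0.160 and 0.270 RPKM. The part of such other cells in the levels of the alpha-arrestins was not tested.

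Where the members lie and how their coding sequences begin is given here because TE and 5′UTR footprints are read against these annotated regions. In GENCODE M21 on GRCm38, *Txnip* lies on the + strand at chr3:96557957-96561883 with 2 protein-coding transcripts among its 6 annotated ones. *Arrdc1* lies on the - strand at chr2:24925352-24935252, *Arrdc2* on the - strand at chr8:70835129-70839720, *Arrdc3* on the + strand at chr13:80883384-80896042 and *Arrdc4* on the - strand at chr7:68736995-68749241. The counted part of the CDS was 1190 nt in *Txnip* and covered 99.9% of its annotated CDS. It covered 97.0% in *Arrdc3* and 100% in *Arrdc1*, *Arrdc2* and *Arrdc4*. The principal transcripts encode proteins of similar size, from 396 codons in *Txnip* to 433 codons in *Arrdc1*.

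The start codons of the principal transcripts stand in the following contexts, shown 5′ to 3′ with the start codon in capitals.
Txnip: cggctcaatcATGgtga
Arrdc1: agaccgcggtATGggga
Arrdc2: cgtcaccgcaATGctgt
Arrdc3: tgttataatcATGgtgc
Arrdc4: gcctggcggaATGggag
All 5 have a purine 3 bases before the start codon, A in *Txnip* and *Arrdc3* and G in the others, and all but *Arrdc2* have G directly after it. The annotated 5′UTR of the principal transcript was 276 nt long in *Txnip*, 18 nt in *Arrdc1*, 319 nt in *Arrdc2*, 240 nt in *Arrdc3* and 175 nt in *Arrdc4*. It held 0 upstream ATG codons in *Txnip*, *Arrdc1*, *Arrdc2* and *Arrdc4*. In *Arrdc3* it held 3, whose reading frames of 4, 15 and 3 codons all close before the CDS. None of the 5 annotated transcripts opens with a TOP motif, searched as C followed by at least 4 pyrimidines, and the 5′ ends used in SCCc were not analysed here. The G and C content of the 5′UTR ran from 39.2% in *Arrdc3* and 46.0% in *Txnip* to 70.9% in *Arrdc4* and 83.3% in the short leader of *Arrdc1*.

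Because *Txnip* is known as a MondoA target, the promoters of the members, from 250 bases before the start to 50 after it, were searched for a carbohydrate response element. RefSeq on GRCm38.p6 gave 7 promoter sequences for the 5 members. The motif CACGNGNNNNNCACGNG, in which N is any base, was searched on both strands and was found in 16 of 32851 promoter sequences of the same length (0.0487%). Of the members, *Txnip* held it, on the + strand at chr3:96557872-96557888, between 85 and 69 nt upstream of the annotated start. The repeated CACGNG units are in capitals below.
Txnip: actgtgCACGAGggctgCACGAGcctcca
The shorter E-box CACGTG, present in 7.15% of the promoter sequences, was found in *Arrdc4* at chr7:68749426-68749431. The CCAAT box was searched on both strands, as CCAAT or as its inverted form ATTGG. It occurred in either form at 2 positions in *Txnip*, 3 in *Arrdc2*, 1 in *Arrdc3* and 6 in *Arrdc4*. In either form it is held by 37.4% of all promoter sequences. Read along the gene, the site of *Arrdc3* is CCAAT, those of *Arrdc2* are ATTGG, and *Txnip* and *Arrdc4* hold both forms. These matches describe letters in the promoters and not binding.

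*Txnip* RNA was far more abundant than that of any other member. Its exons held 21614 counts in RNA-seq replicate 1 and 28909.6 in replicate 2, which is 726 and 742 RPKM (mean 734 ± 11.7, SD, n = 2). The deposited RPKM, which use larger library totals, give a mean of 156 RPKM. Among the 9863 genes that passed the filters, this level ranked 62 from the top. To pass, a gene needed more than 1 RPKM in each RNA-seq library, a mean normalised count over the 3 libraries above 25 (the base mean), and footprints on a counted CDS. In libraries made from many cells, more cells carrying an RNA and more RNA in each cell cannot be told apart.

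Footprints on *Txnip* did not follow this rank. Its CDS held 329.5 footprints (95% interval 295 to 367), a level of 78.0 RPKM (69.8 to 86.9) that ranked 1859 of the 9863 genes. The log2 TE, taken as CDS footprint RPKM over mean RNA-seq RPKM and set relative to the median gene, was -3.58 ± 0.03 (SD over the 2 RNA-seq replicates), with a footprint counting interval from -3.74 to -3.42. On the linear scale *Txnip* had 11.9 times fewer footprints per RNA than the median gene. The log2 TE was -3.56 against replicate 1 alone and -3.60 against replicate 2 alone, a gap far smaller than the counting interval. In all, 135 genes, 1.37% of those passing, had a lower value.

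The 4 *Arrdc* genes had much less RNA and spanned a range of their own. *Arrdc1*, the vesicle-budding adaptor, had 528 and 806 RNA-seq counts on exons (27.8 and 32.5 RPKM) and 109.8 CDS footprints (23.8 RPKM, 19.5 to 28.6). Its log2 TE was -0.69 ± 0.17 (-0.97 to -0.42), the highest of the members and the nearest to the median gene. *Arrdc1* thus had 0.622 times the footprints per RNA of the median gene.

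*Arrdc3* had RNA close to that of *Arrdc1* but fewer footprints. Its exons held 1222 and 1399 counts (29.3 and 25.7 RPKM), and its CDS held 63.5 footprints (14.4 RPKM, 11.1 to 18.4). The resulting log2 TE was -1.27 ± 0.12 (-1.65 to -0.92), so the upper end of the counting interval lies above -1.

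*Arrdc4*, the other known MondoA target, had 737 and 938 RNA-seq counts (17.4 and 16.9 RPKM). Only 20.7 footprints fell on its CDS (4.62 RPKM, 2.85 to 7.08). Its log2 TE was -2.24 ± 0.02 (-2.94 to -1.62), which is 4.71 times fewer footprints per RNA than the median gene. Next to *Txnip* this is the lowest value in the set that rests on more than a few footprints.

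*Arrdc2* had the least RNA and the fewest CDS footprints of the members. It had 72.2 and 124 RNA-seq counts (2.87 and 3.77 RPKM) and 2 CDS footprints (0.461 RPKM, 0.0559 to 1.67). The log2 TE of -3.19 ± 0.29 therefore had a counting interval from -6.24 to -1.34, and its place in the order cannot be read at this depth.

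**Figure D1:**
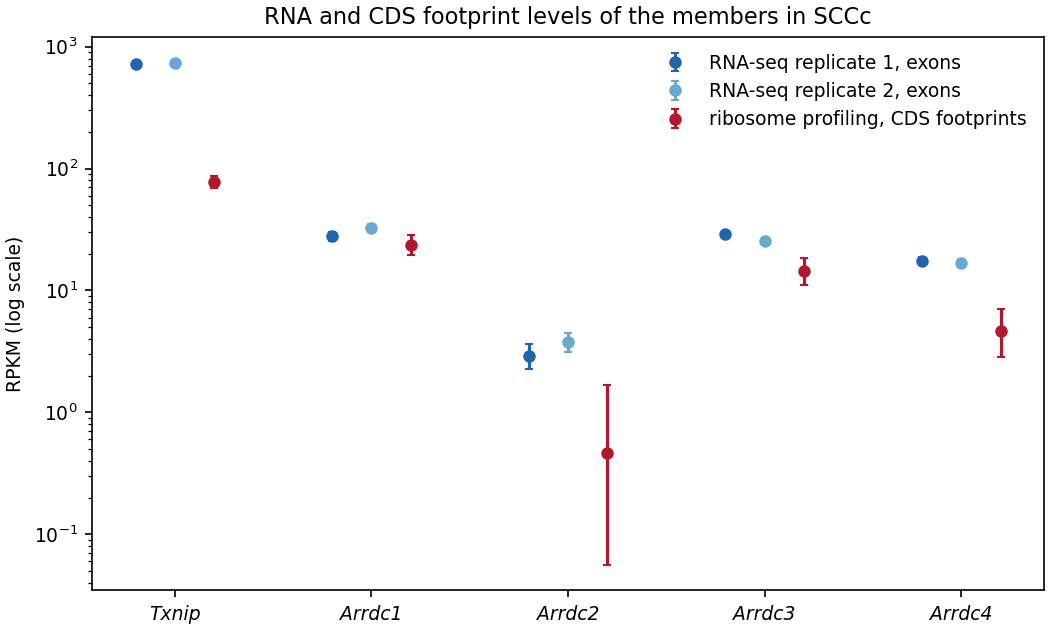
RNA-seq RPKM on exons in both replicates (blue) and CDS footprint RPKM in the ribosome profiling library (red) of each member, on a log axis, with exact Poisson 95% intervals. *Txnip* RNA at 726 and 742 RPKM stands far above the other members, while its footprints, at 78.0 RPKM, are nearer to those of *Arrdc1* at 23.8 RPKM.

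In this plot of levels the order by footprints was *Txnip*, *Arrdc1*, *Arrdc3*, *Arrdc4* and *Arrdc2*, and no neighbours had overlapping counting intervals. By RNA the order was the same, but *Arrdc1* (30.1 ± 3.31 RPKM) and *Arrdc3* (27.5 ± 2.59 RPKM) did not differ beyond the spread of the replicates. By TE the order from the lowest was *Txnip*, *Arrdc2*, *Arrdc4*, *Arrdc3* and *Arrdc1*, and the counting intervals of each pair of neighbours overlapped. Those of *Txnip* and *Arrdc4* did not overlap, nor did those of *Arrdc4* and *Arrdc1*. *Txnip* made up 90.4% of the summed RNA RPKM of the members and 64.3% of their summed footprint RPKM. *Arrdc1* made up 3.71% of the RNA and 19.6% of the footprints.

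All 5 members passed the filters, and 4 of them had a log2 TE below -1, against 21.1% of all genes passing. None was above 1, against 20.8% of all genes. The members were chosen with these values known, so nothing is read from this count. Their median was -2.24, with the median of all genes at 0 by definition and an SD of 1.45 over the 9863 genes. The count depended on the depth required, because with at least 100 counts in every library only *Txnip* and *Arrdc1* were left, and both were then below -1. With the deposited RPKM *Arrdc2*, at 0.706 RPKM of RNA, did not pass, and 3 of the 4 members left were below -1.

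The RNA-seq replicates gave similar levels. The log2 ratio of replicate 2 to replicate 1 was 0.03 in *Txnip* and -0.04 in *Arrdc4*. It was 0.22 in *Arrdc1* and -0.19 in *Arrdc3*, so the replicates put these genes in opposite orders. *Arrdc2*, with the fewest counts, had the widest gap at 0.39. The SD of this ratio over all 9863 genes was 0.20, which *Arrdc1* and *Arrdc2* exceeded.

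**Figure D2:**
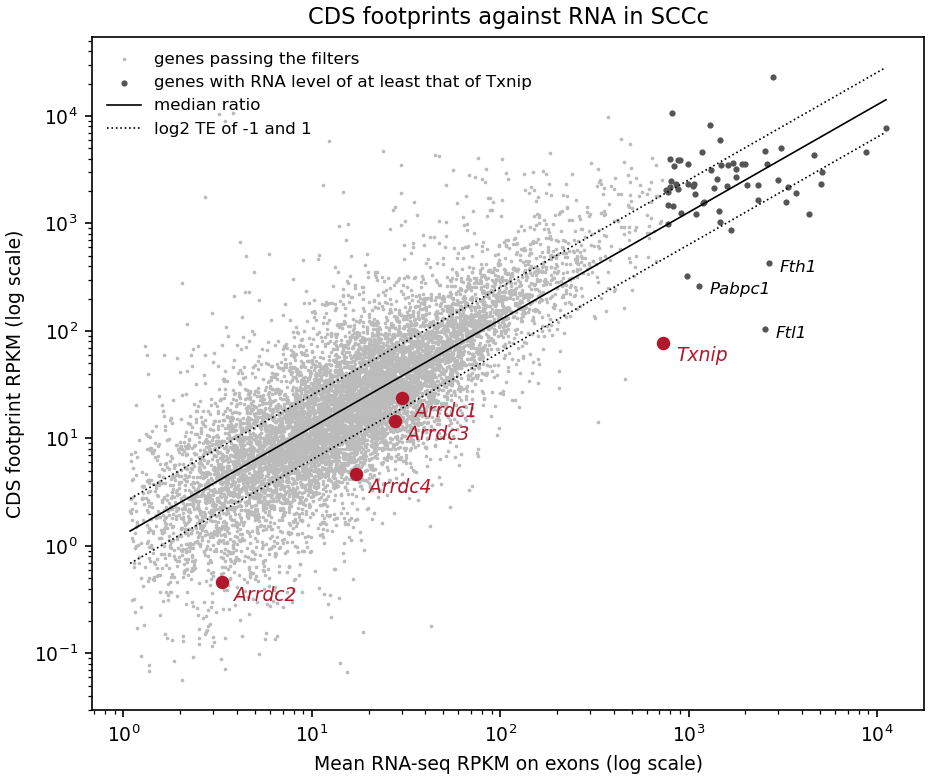
CDS footprint RPKM against mean RNA-seq RPKM of the 9863 genes passing the filters, both on log axes, with the median ratio as a solid line and log2 TE of -1 and 1 as dotted lines. The members are in red, and *Txnip* lies below all 61 other genes with RNA at least as abundant (dark grey), at 78.0 RPKM of footprints. By this cut *Txnip* also has the least RNA of that group.

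Set beside genes with at least as much RNA, *Txnip* stood at the lower edge of the plot of footprints against RNA. Of the 62 genes with RNA-seq RPKM at or above its own, *Txnip* had the lowest CDS footprint RPKM, where the median of the 62 genes was 2313 RPKM. Because the group was cut at the RNA level of *Txnip*, that gene had the least RNA in it. The others ran up to 11166.5 RPKM of RNA, so a low footprint rank is partly built into this cut. Their median log2 TE was 0.42, with 12 genes below -1 and 14 above 1. Only *Ftl1*, a ferritin light chain, had a lower log2 TE (-4.97), from 202 footprints. *Fth1*, the ferritin heavy chain, followed at -3.00 and *Pabpc1*, the cytoplasmic poly(A)-binding protein and one of the genes nearest to *Txnip* by the distance given below, at -2.45. *Ftl1* and *Fth1* were chosen after their values were seen, and the mRNAs of both ferritin chains are known to carry an iron-responsive element in the 5′UTR. Seen from the other side, 300 other genes had a footprint RPKM within 1.1-fold of that of *Txnip*. Their median RNA level was 35.0 RPKM and the highest was 136 RPKM, so none reached the 734 RPKM of *Txnip*.

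How footprints spread along the mRNA was then compared with the RNA in the same regions. *Txnip* RNA was even, with 698 RPKM on the 5′UTR, 773 on the CDS and 689 on the 3′UTR in replicate 1. In replicate 2 the same regions had 663, 796 and 710 RPKM. Footprints on *Txnip* were not even and fell to 2.00 RPKM (0.932 to 3.76) on the 3′UTR, from 9.33 footprints, which is 38.9 times below the CDS. The CDS took 82.9% of the *Txnip* footprints on these regions (exact Clopper-Pearson 95% interval 78.8 to 86.5%), the 5′UTR 14.8% (11.5 to 18.7%) and the 3′UTR 2.35% (1.04 to 4.25%). Summed over all gene rows, the CDS took 93.4% of the footprints, the 5′UTR 4.67% and the 3′UTR 1.91%. In RNA-seq replicate 1, by contrast, the *Txnip* CDS took 45.5% of the reads and the 3′UTR 44.8%. The few footprints on *Txnip* thus lay mainly on its CDS and 5′UTR.

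Footprints per RNA were low in each region of *Txnip*. The log2 ratio of footprint RPKM to mean RNA-seq RPKM was -3.33 on the CDS, -3.52 on the 5′UTR and -8.45 on the 3′UTR. The median gene had 0.05 on the CDS, 0.20 on the 5′UTR and -5.04 on the 3′UTR. Relative to those medians *Txnip* was at -3.38, -3.72 and -3.41, so its shortfall was of similar size in all 3 regions, the 3′UTR value resting on few footprints. *Arrdc3* was at -1.07 on the CDS and, from 5 footprints, at -1.55 on the 5′UTR. *Arrdc1* was at -0.68 on the CDS, at -1.20 on the 5′UTR from 0.829 footprints and at 1.49 on the 3′UTR from 1.36 footprints. *Arrdc4* was at -2.27 on the CDS and, from 5.34 footprints, at 1.64 on the 5′UTR. On its 3′UTR *Arrdc3* was at -2.30 from 1.47 footprints. The values of the *Arrdc* genes outside the CDS thus went both ways and rest on few footprints.

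**Figure D3:**
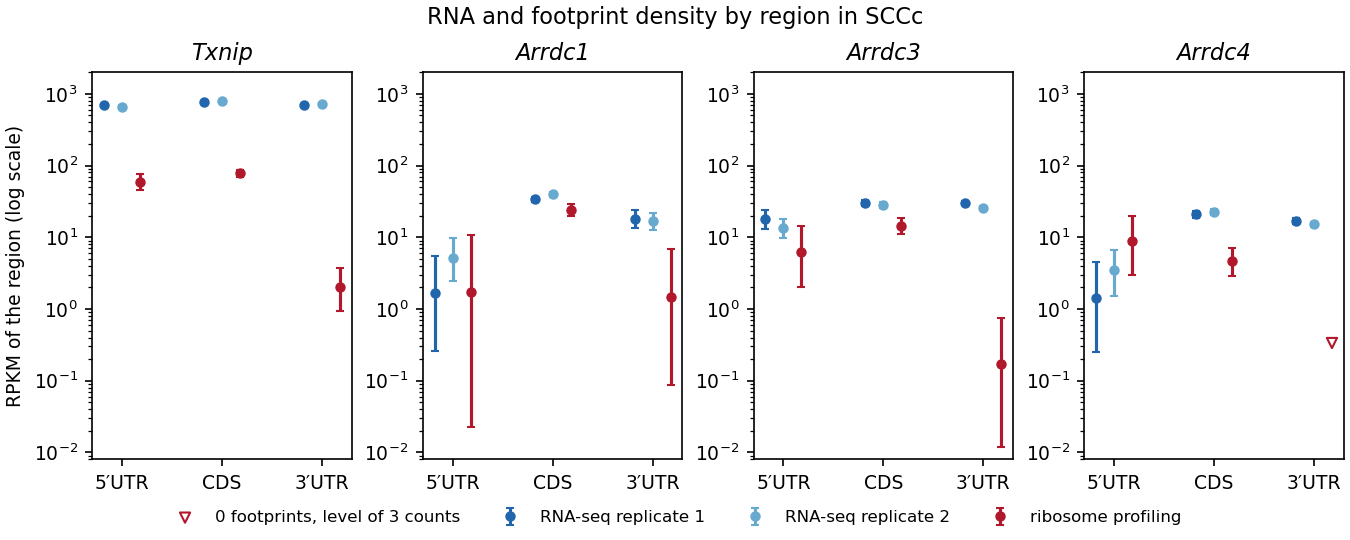
RPKM on the 5′UTR, CDS and 3′UTR of *Txnip*, *Arrdc1*, *Arrdc3* and *Arrdc4* in both RNA-seq replicates (blue) and in ribosome profiling (red), on a log axis with exact Poisson 95% intervals; the open triangle marks 0 footprints, drawn at the level of 3 counts. In *Txnip* the RNA is even across the regions and the footprints drop from 78.0 RPKM on the CDS to 2.00 RPKM on the 3′UTR; *Arrdc2*, with 2 footprints, is not drawn.

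The other members had too few footprints outside the CDS for fine comparison. *Arrdc3* had 1.47 footprints on its 3′UTR of 2422 counted nt, against 775 and 865 RNA-seq counts there. *Arrdc4* had 0 on a 3′UTR of 2523 counted nt, where 3 counts would be 0.335 RPKM and the RNA stood at 16.8 and 15.2 RPKM. *Arrdc1* had 0.829 footprints on the 5′UTR, under the 3 counts from which a library can show a region. That region also held only 2.41 and 9.93 RNA-seq counts, and 136 nt of it were counted against 18 nt in the 5′UTR of the principal transcript. *Arrdc2* had 0 footprints on the 5′UTR, where 3 counts would be 2.65 RPKM, above its RNA at 0.872 and 1.71 RPKM, so none were detectable at this depth.

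The density of footprints on the 5′UTR was set against that on the CDS of the same gene. *Txnip* had 58.9 footprints on 279 counted nt of 5′UTR, a level of 59.4 RPKM (45.2 to 76.7) beside 78.0 RPKM on the CDS. The log2 ratio was -0.39 (exact binomial 95% interval -0.81 to 0.02), so the leader was nearly as densely covered as the coding sequence. In RNA-seq the same ratio was -0.15 in replicate 1 and -0.26 in replicate 2, both inside that interval. The ratio of *Txnip* was above that of 76.3% of the 6592 genes that had enough counted length and footprints, whose median was -1.38. The RNA-seq medians of the same genes were -2.05 and -1.67, and the RNA-seq ratios of *Txnip* lay above them too, so its high ratio is not particular to footprints. This stands beside an annotated 5′UTR without an upstream ATG, as given with the start codons above. That 5′UTR did hold 5 CTG codons, which the paper counts among potential upstream start sites. Whether ribosomes start there was not tested.

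*Arrdc3*, the member with 3 upstream ATG codons, had a log2 ratio of -1.22 (-2.90 to 0.06) from 5 footprints on the 5′UTR. Its RNA gave -0.78 and -1.06, within the same interval, so no excess of footprints on its leader was detectable. For *Arrdc1* the ratio was -3.79 (-8.84 to -1.01), with -4.35 and -2.93 in RNA-seq. *Txnip*, *Arrdc1* and *Arrdc3* were the 3 members in this comparison, and 0 of them had a ratio above 0, against 16.4% of all genes, or above 1, against 4.19%.

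*Arrdc4* fell short of the 30 footprints required and is given as values alone. It had 5.34 footprints on 172 counted nt of 5′UTR and 20.7 on the CDS, a log2 ratio of 0.92 (-0.96 to 2.25). The RNA-seq ratio was -3.87 (-5.96 to -2.11) in replicate 1 and -2.70 (-3.97 to -1.76) in replicate 2, from 2.63 and 8.29 counts on the 5′UTR, of which the first is under the 3 counts from which a library can show a region. Both intervals lie below that of the footprints. The footprint level on this leader was 8.75 RPKM (2.98 to 19.9), and its RNA stood at 1.43 RPKM (0.254 to 4.46) and 3.44 RPKM (1.51 to 6.70). On this scale of levels the intervals overlap. The counts are few, and this gene was picked out after its values were seen.

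**Figure D4:**
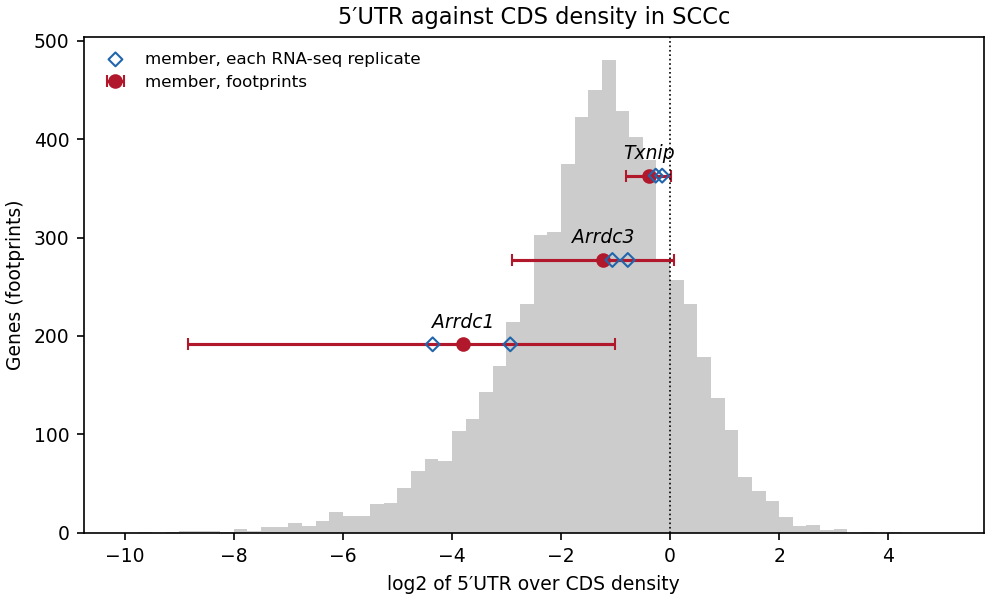
Histogram of the log2 ratio of 5′UTR to CDS footprint density over 6310 genes (282 further genes had 0 footprints on the 5′UTR), with *Txnip*, *Arrdc3* and *Arrdc1* in red with exact binomial 95% intervals and their RNA-seq ratios as blue diamonds; the height of the members has no meaning. *Txnip*, at -0.39, lies to the right of the median of -1.38, and its RNA-seq ratios lie inside its interval.

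The genes most like *Txnip* were sought over 4 log2 RPKM measures, RNA in each replicate and footprints on CDS and 5′UTR, by Euclidean distance among 2864 genes with enough counts. The nearest was *Trim29* at a distance of 1.98, followed by *Pabpc1* (2.17), *Eif4b*, *Wdr61* (2.51) and *Cpe* (2.55). *Trim29* had 340 and 387 RPKM of RNA and 153 RPKM of CDS footprints, so even the nearest gene had less RNA and more footprints than *Txnip*. No *Arrdc* member had enough footprints on the 5′UTR to enter this comparison.

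Partners of these proteins were taken from 7 fixed lists with 30 genes, of which 19 passed the filters. Of these, 2 had a log2 TE below -1, against 21.1% of all genes passing, and 4 were above 1, against 20.8%, with a median of 0.09. The share above 1 is thus near that of all genes, and the counts of single lists below are too small to set against these shares. The thioredoxin system was read in full, with 5 of 5 genes passing, 0 below -1, 2 above 1 and a median of 0.39. *Txn1*, the cytosolic thioredoxin that *Txnip* binds, had a log2 TE of 2.64 ± 0.06 from 2002 footprints. *Txnip* had 3.25 times the RNA RPKM of *Txn1*, and *Txn1* had 22.9 times the CDS footprint RPKM of *Txnip*. *Txnrd1*, the cytosolic thioredoxin reductase, was at 1.34 ± 0.06. The log2 TE of the other genes of this list was 0.39 ± 0.19 in *Txn2*, 0.09 ± 0.07 in *Txnrd2* and -0.25 ± 0.02 in *Txnrd3*.

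The factors that drive *Txnip* transcription were present at modest levels. *Mlxip* had 8.42 and 9.09 RPKM of RNA and a log2 TE of -0.74 ± 0.09, and *Mlx* had 15.0 and 13.4 RPKM and a log2 TE of 1.16 ± 0.10. *Mlxipl*, which encodes the related factor ChREBP, had 4 and 2.46 counts and did not pass. Of the 3 glucose transporters *Slc2a1* passed, with 230 and 274 RPKM of RNA and a log2 TE of -0.42 ± 0.19, while *Slc2a3* and *Slc2a4* had at most 7.02 RNA-seq counts in either library. *Txnip* RNA was 2.91 times that of *Slc2a1* per length, and the CDS footprints of *Slc2a1* were 3.06 times those of *Txnip*.

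Among NEDD4 family ligases, the partners of alpha-arrestins in ubiquitination, 7 of 9 passed, 2 were below -1 and 1 was above 1, with a median of -0.28. *Nedd4* was the most abundant at 248 and 229 RPKM of RNA, with a log2 TE of -0.18 ± 0.07. *Itch*, a ligase known to act on *Txnip*, was at -0.28 ± 0.13, and *Smurf2* (-1.54) and *Wwp1* (-1.24) were the lowest. *Tsg101*, the budding partner of *Arrdc1*, was at 0.99 ± 0.04. *Prkaa1*, a catalytic subunit of AMPK, which phosphorylates *Txnip*, was at 0.88 ± 0.24, and *Prkaa2* had 0 counts on exons in both RNA-seq libraries and 0 CDS footprints. Of the beta and visual arrestins *Arrb2* passed, at 0.60 ± 0.35, and the remaining alpha-arrestin, *Arrdc5*, had 0 counts in every library, which allows up to 3 counts.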

How the data were processed

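Short reads of SCCc were processed by the authors, who used TrimGalore for trimming, STAR 2.6.1 for alignment to GRCm38, Bowtie2 2.4.1 and, for counting, Plastid; versions are from the submitters' processing notes. The authors deposited estimated counts per gene for exons, CDS, 5′UTR and 3′UTR, which need not be whole numbers, and RPKM values that use larger library totals. The annotation release used for counting is not given in the sources used here. New RPKM values were computed from counts, region length and the summed exon counts, with numpy 2.4.6, pandas 2.3.3 and scipy 1.17.1 in Python 3.11.15. The base mean used size factors that DESeq2 1.42.0 estimated from rounded counts. No test was run, because 1 condition and 1 ribosome profiling library were used. The comparison of 5′UTR and CDS footprints required 60 counted nt of each region, 30 footprints on both together and 10 on the CDS; that of likeness required 100 RNA-seq counts in both libraries, 60 counted nt and 10 footprints on each region. Binomial intervals used rounded counts. PCR copies are not independent molecules, so intervals and the floor of 3 counts cover counting error only. Members, lists and filters were chosen with earlier results of these data known. The named genes were the 5 members, the fixed lists, the cell type markers and the nearest genes by distance; *Ftl1* and *Fth1* were added after their values were seen. The value of 1 listed gene is not reported here; the gene stays in the list totals. The comparisons with genes of at least equal RNA level or of similar footprint level were chosen after the values were seen. So were the region ratios and the promoter and 5′UTR searches. The TE calculation was tested on simulated counts. As alternatives, each RNA-seq replicate was left out, and calculations were repeated with other regions, filters and pseudocounts, edgeR 4.0.16 TMM factors, DESeq2 size factors and the deposited RPKM.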

Additional observations from a re-analysis of the deposited data

How the results depend on the processing

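The low log2 TE of *Txnip* kept its sign and stayed below -1 under each of the 10 alternatives, between -3.97 and -3.38. Values outside the spread of the RNA-seq replicates were -3.38 with RNA-seq counted over the CDS, -3.53 with a pseudocount of 1 RPKM, -3.79 with counts not divided by length and -3.97 with at least 100 counts in every library. Leaving out an RNA-seq replicate gave -3.60 and -3.56. The number of members with log2 TE below -1 was 4 under most alternatives, 3 with the deposited RPKM, under which *Arrdc2* did not pass, and 2 with at least 100 counts in every library, under which *Arrdc2*, *Arrdc3* and *Arrdc4* did not pass. Under this last filter the median gene had a higher TE, and *Arrdc1* was at -1.08. With counts not divided by length *Arrdc1* was higher, at -0.12, while *Arrdc3* was lower, at -1.91, and so was *Arrdc4*, at -2.88. With the pseudocount *Arrdc2* was at -1.88, above *Arrdc4* at -2.01. The log2 ratio of 5′UTR to CDS footprints on *Txnip* was -0.19 when divided by that of RNA-seq and -0.37 with 1 count added to each region, both inside its interval, and -2.48 with raw counts, which by construction ignore the shorter 5′UTR. For *Arrdc1* and *Arrdc4* this ratio went from -3.79 to -0.32 and from 0.92 to 4.09 when divided by that of RNA-seq, which rests on few counts in both genes, while 4 other values of the *Arrdc* genes stayed inside their intervals. For the *Arrdc* genes, 26 of the TE values under the alternatives lay within the replicate spread and 10 outside it, with no change of sign. No paired analysis was possible with 1 ribosome profiling library. The mean RNA-seq RPKM of *Txnip*, 734 in the report, was 672 with edgeR TMM factors and 156 with the deposited RPKM, under which that of every member was lower. Depth limits the TE of *Arrdc2*, with 2 CDS footprints, and the 5′UTR of *Arrdc1*, *Arrdc3* and *Arrdc4*, with at most 5.34 footprints. Files of 1 ribosome profiling library were used, so the spread of footprints between libraries was not tested.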
